A study of Mus musculus with 16 samples.

Results

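The clustered protocadherins are the cell-surface proteins encoded by the Pcdha (alpha), Pcdhb (beta) and Pcdhg (gamma) gene clusters. Every gene whose name begins with Pcdha, Pcdhb or Pcdhg in the per-library gene tables was taken, which gave 61 of the 20436 genes listed: 17 in the alpha cluster, 22 in the beta cluster and 22 in the gamma cluster. They were measured by RNA-seq of cytoplasmic RNA and by ribosome profiling, which sequences the RNA fragments protected by ribosomes (footprints), in cerebral cortex of mice aged 28 to 35 postnatal days. The 4 genotypes were wild type (WT), the Fmr1 single knockout, the Cpeb1 single knockout and the Fmr1/Cpeb1 double knockout, and the strain of all mice is given as FVB.129P2-/Pde6b+ Tyr c-ch //AntJ. Each genotype had 2 libraries of each assay, so there were 16 libraries in all. Fmr1 encodes FMRP, an RNA-binding protein that regulates translation and is lost in fragile X syndrome. Cpeb1 encodes an RNA-binding protein that controls cytoplasmic polyadenylation and translation. The labels give neither the alleles nor the sex of the mice, and they do not say whether the libraries of a genotype came from separate mice, so every p-value measures the spread between these libraries only.

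In the alpha and gamma clusters each member has its own promoter and variable first exon, which is spliced to constant exons shared by the whole cluster. The beta genes lack the shared constant exons, and their variable exons are similar to each other. Neurons switch on different combinations of alternate isoforms, while C-type isoforms are used more broadly, and the proteins bind matching partners on neighbouring cells in the self-avoidance and spacing of neurites. Promoter choice depends on CTCF, cohesin and DNA methylation. A cortical lysate pools many neurons, so the values below are averages over cells, and fewer cells using an isoform cannot be told apart from less RNA per cell.

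The members lie on mouse chromosome 18. In the RefSeq table of assembly GRCm38.p6, the assembly that mm10 names, to which all 61 names matched, they span positions 36930285 to 37841873. The alpha cluster without 3 hybrid genes covers positions 36930285 to 37188897, the beta cluster 37264998 to 37521419 and the gamma cluster 37661775 to 37841873. The alpha cluster comprised 12 alternate isoforms (Pcdha1 to Pcdha12), the C-type isoforms Pcdhac1 and Pcdhac2, and 3 genes with the suffix -g (Pcdha4-g, Pcdha6-g and Pcdha7-g). RefSeq places the ends of the -g genes in the gamma cluster, and they are described here as an alpha variable exon joined to the gamma constant exons. The gamma cluster held 12 A-type members, 7 B-type members and the C-type isoforms Pcdhgc3, Pcdhgc4 and Pcdhgc5. Pcdhgb8 is a transcribed pseudogene in RefSeq. Coding lengths ran from 2316 nt in the beta cluster to 3018 nt in the alpha cluster.

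The RNA libraries held 5423925 to 10246482 counts assigned to genes, and the footprint libraries 16239703 to 24973757. The members took 6032 to 11469 of the counts of an RNA library, or 0.1075% to 0.1161%, and 18425 to 28581 of those of a footprint library, or 0.0963% to 0.119%. The deposited counts are estimates, and 95.49% of member values in RNA and 97.95% in footprints were not whole numbers, against 6.158% and 60.69% over all genes. Because members of the alpha and gamma clusters share exons and beta genes resemble each other, results for isoforms are given beside the sums of the clusters. The knocked-out genes were low where the labels place a knockout: Fmr1 footprints were 94.8 to 107.7 CPM (counts scaled to equal library totals) in the 4 libraries with an intact Fmr1 gene and 5.33 to 8.69 CPM in the other 4, and Cpeb1 footprints were 33.4 to 36.7 CPM and 7.30 to 7.73 CPM. In RNA Fmr1 was at 87.0 to 115.6 CPM and 18.4 to 25.9 CPM, and Cpeb1 at 27.6 to 43.9 CPM and 15.98 to 19.7 CPM. All listed neuron markers were above 0 in every library, with a summed level of 4994 to 6399 TPM (a length-scaled unit) in RNA. The markers of ependyma and choroid plexus also were, and their sum ranged more widely, from 38.1 to 796.6 TPM in RNA and from 49.5 to 416.1 TPM in footprints, with the WT library of number 2 highest in RNA and the Cpeb1 knockout library of number 2 highest in footprints. Their part in the results below was not tested.

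Levels of different members were compared in TPM, which is scaled by gene length. The highest levels belonged to 3 of the 5 C-type isoforms in RNA. Pcdhgc5 had the highest level of all members in both assays, with a mean of 89.5 TPM in RNA (82.1 to 97.2 over 8 libraries) and 114.8 TPM in footprints (100.4 to 128). Pcdhac2, which serotonergic neurons use to space their axons, was next in RNA at 69.7 TPM (61.2 to 76.0) and was also next in footprints, at 18.8 TPM (14.9 to 21.0). Pcdhgc3 had 25.1 TPM in RNA (19.8 to 30.2) and 16.4 TPM in footprints (14.0 to 18.4). The ranges of Pcdhgc3 and Pcdhac2 overlapped in footprints and did not overlap in RNA. Pcdhgc4, the isoform needed for survival of many cortical interneurons, had 14.2 TPM (12.6 to 16.7) and 13.8 TPM (12.4 to 15.8), and Pcdhac1 had 9.24 TPM (7.3 to 11.9) and 2.02 TPM (1.55 to 2.41).

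Several alternate and beta isoforms reached the level of Pcdhgc4 in RNA or exceeded that of Pcdhac1. In the alpha cluster Pcdha12 had 12.3 TPM in RNA and 8.32 TPM in footprints (6.8 to 10.8), and Pcdha5 had 7.93 TPM and 5.78 TPM (5.33 to 6.25). In the gamma cluster Pcdhga11 had 15.6 TPM in RNA and 13.9 TPM in footprints (11.8 to 17.7), which overlapped the ranges of Pcdhgc3 and Pcdhgc4 in footprints. The 3 beta members with the highest footprint means were Pcdhb14 at 6.42 TPM (5.24 to 7.56), Pcdhb9 at 5.91 TPM (4.52 to 6.98) and Pcdhb17 at 5.90 TPM (5.15 to 6.48), and their ranges overlapped. Pcdhb17 had the highest beta mean in RNA, 15.6 TPM (12.8 to 17.6). At the lower end were Pcdhb1, at 0.254 TPM in RNA and 0.204 TPM in footprints, and Pcdha8, at 1.54 TPM in RNA and 0.21 TPM in footprints. These 2 members were chosen for naming after their values were seen. Of the 61 members, 60 had a mean over 1 TPM in RNA and 56 in footprints, and the median member was at 6.46 TPM in RNA and 4.44 TPM in footprints.

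**Figure D1:**
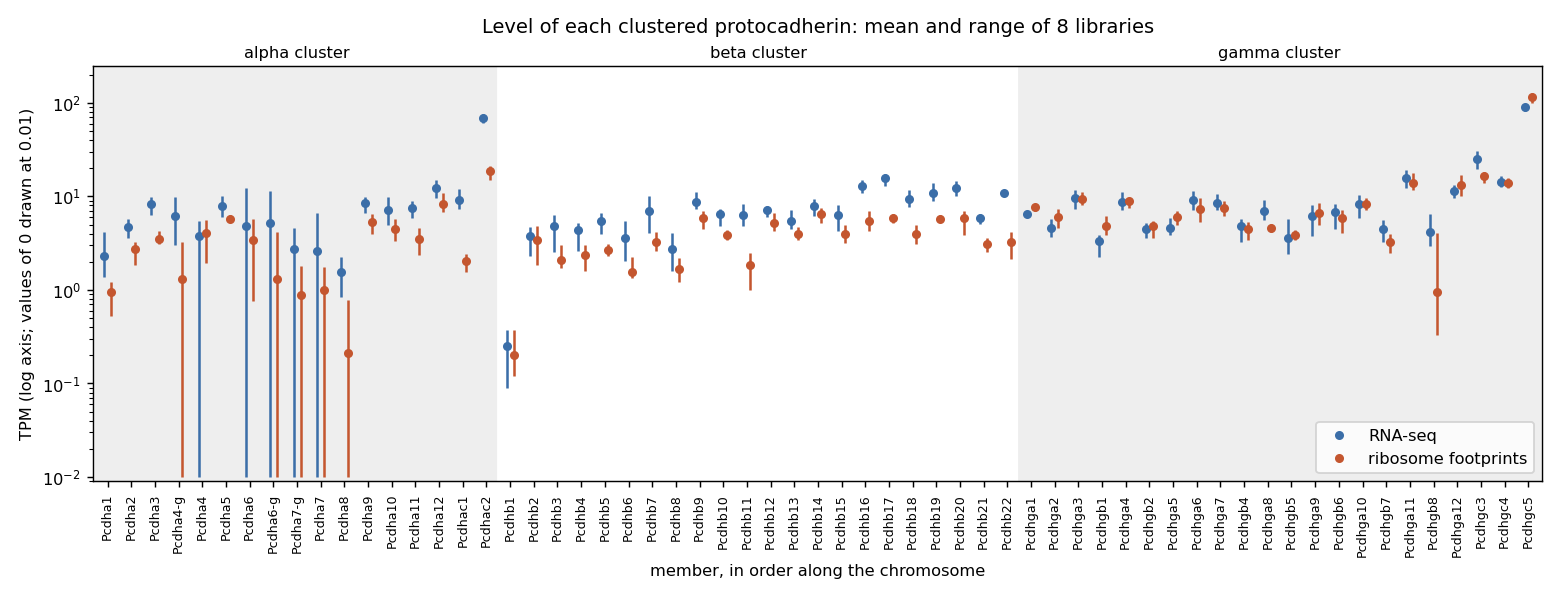
Level of each of the 61 members in TPM on a log axis, in order along the chromosome. Points are means of 8 libraries and lines run from the lowest to the highest library, in blue for RNA and orange for footprints, with values of 0 drawn at 0.01. Pcdhgc5 and Pcdhac2 stand above the rest in RNA, and the lines of Pcdha4, Pcdha6, Pcdha7 and their -g genes are long.

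How evenly a cluster was used differed between clusters. The effective number of isoforms is the exponential of the Shannon entropy of the TPM shares. It equals the number of members when all are at the same level. In RNA the effective number was 19.1 of 22 in the beta cluster (18.3 to 19.6 over 8 libraries). It was 12.6 of 22 in the gamma cluster (12.2 to 13.4) and 8.78 of 17 in the alpha cluster (7.71 to 9.58). In footprints the beta cluster was again highest, at 19.43 (19.04 to 20.18). The alpha cluster, at 10.73 (10.31 to 10.98), and the gamma cluster, at 10.64 (10.14 to 11.52), then overlapped. The order of gamma above alpha was therefore seen in RNA only. The alpha values include the -g genes and their namesakes, whose split of reads varied between libraries. Pcdhac2 alone made up 42.4% of alpha cluster TPM in RNA (37.9% to 46.7%) and 27.8% in footprints (24.6% to 30.1%). Pcdhgc5 made up 34.4% of gamma cluster TPM in RNA (31.7% to 35.8%) and 42.1% in footprints (39.9% to 43.4%). The largest share of any beta member in RNA was that of Pcdhb17, 9.88%. Over all 61 members the order by level was similar between libraries. Spearman's rho was 0.753 to 0.943 over the 28 pairs of RNA libraries and 0.883 to 0.973 over the 28 pairs of footprint libraries. The 61 genes share their library and are not independent. Within the alpha cluster the order was less stable in RNA, with rho of 0.397 to 0.956. The lowest rho in RNA was 0.808 in the beta cluster and 0.849 in the gamma cluster.

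The 3 clusters took different parts of the member total in the 2 assays. The gamma cluster held 44.7% of member TPM in RNA (41.8% to 48.2% over 8 libraries) and 64.6% in footprints (63.1% to 65.9%). The alpha cluster held 28.2% in RNA (26.7% to 29.1%) and 16.02% in footprints (15.3% to 16.6%), and the beta cluster held 27.1% (24.4% to 29.1%) and 19.4% (18.4% to 20.5%). In all 3 clusters the ranges of the 2 assays did not overlap. Footprint TPM divided by RNA TPM, with each mean taken over the 8 libraries of an assay, was 1.05 for the gamma sum (0.881 to 1.203 between libraries of the same genotype and number), 0.516 for the beta sum (0.418 to 0.573) and 0.411 for the alpha sum (0.348 to 0.467). Over the 12338 genes above 1 TPM in both assays, 76.5% had a lower ratio than the gamma sum, 33.7% a lower ratio than the beta sum and 23.1% a lower ratio than the alpha sum. TPM is relative to the library total in each assay, so a ratio places a gene among the others and does not measure ribosomes per transcript.

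Among single members the median log2 ratio was -0.02 in the gamma cluster, -0.93 in the beta cluster and -1.23 in the alpha cluster, against -0.56 over all genes above 1 TPM. With the same minimum of 1 TPM in both assays, the median was -0.01 over 21 gamma members, -0.94 over 21 beta members and -0.93 over 14 alpha members. The alternate alpha isoforms alone had a median of -0.75 over all 12 and of -0.69 over the 10 above that minimum. The alpha C-type isoforms and the -g genes were lower than these medians. All 22 beta members and 16 of 17 alpha members had a log2 ratio below 0, against 12 of 22 gamma members. The exception in the alpha cluster was Pcdha4, at 0.10, one of the genes whose reads are split with a -g gene. Both alpha C-type isoforms had lower log2 ratios than the 3 gamma ones: -2.19 for Pcdhac1 and -1.89 for Pcdhac2, and -0.62 for Pcdhgc3, -0.03 for Pcdhgc4 and 0.36 for Pcdhgc5. Pcdhac1 and Pcdhac2 lay below all 10 alternate alpha isoforms above 1 TPM in both assays (-1.37 to 0.10). Pcdhgc3 was the lowest of the 21 gamma members above that minimum. Pcdhgb1 had the highest ratio of all members, 0.54, and 90.6% of all genes above 1 TPM were lower. Pcdhgb8, the annotated pseudogene, was the only gamma member below -1, at -2.12. The -g genes were at -2.24 (Pcdha4-g), -1.99 (Pcdha6-g) and -1.66 (Pcdha7-g), and Pcdha8 was lowest at -2.88. These 4 values varied widely by library. Where RNA was above 0, the ratio before taking logs ran from 0 to 1.10 for Pcdha4-g and from 0 to 0.587 for Pcdha6-g. It ran from 0 to 0.794 for Pcdha7-g and from 0 to 0.619 for Pcdha8. RNA and footprints were quantified on coding sequences that differed by 57 nt in length for 99.6% of genes with a single transcript, and whether the split of shared constant-exon reads differs between the assays was not tested.

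**Figure D2:**
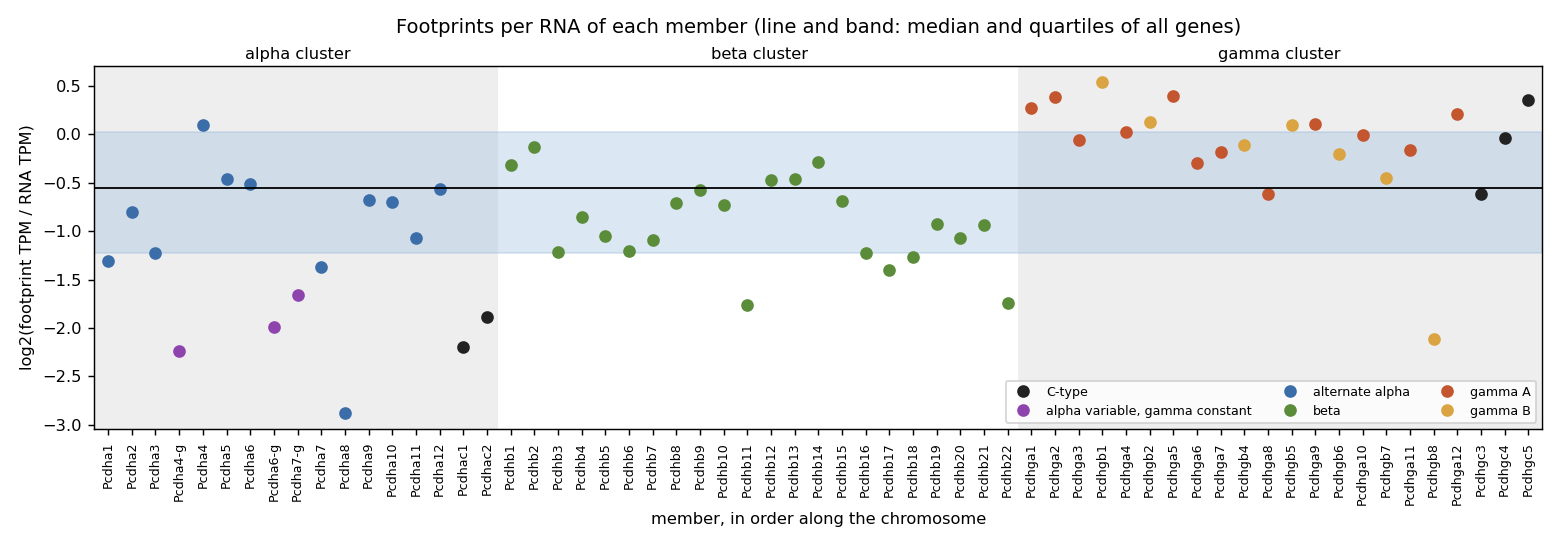
Log2 of footprint TPM over RNA TPM for each member, from means of 8 libraries an assay, in order along the chromosome and coloured by kind of isoform. The line and the band mark the median (-0.56) and the quartiles of the 12338 genes above 1 TPM in both assays. All beta points lie below 0, and most gamma points lie near or above 0.

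The split of reads between a -g gene and the alpha gene with the same variable exon varied between libraries of the same genotype. Pcdha6 in RNA had 4.55 and 16.3 CPM in WT, 9.65 and 24.5 CPM in the Fmr1 knockout, 7.84 and 10.6 CPM in the Cpeb1 knockout, and 0 and 3.57 CPM in the double knockout. Pcdha6-g had 12.0 and 5.56 CPM, 11.51 and 0 CPM, 10.5 and 5.07 CPM, and 21.0 and 13.9 CPM in the same libraries. The library with no Pcdha6 counts, the double knockout library of number 1, had the most Pcdha6-g, and the library with the most Pcdha6, the Fmr1 knockout library of number 2, had no Pcdha6-g. The summed pair ranged only from 15.6 to 24.5 CPM, with a coefficient of variation of 15.5% over 8 libraries, against 81.0% for Pcdha6 and 64.4% for Pcdha6-g.

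The other pairs did the same. Pcdha4 and Pcdha4-g varied by 48.0% and 38.3% in RNA and their sum by 12.3%, and Pcdha7 and Pcdha7-g varied by 80.9% and 59.5% and their sum by 13.3%. In footprints the sum of the Pcdha4 pair varied by 8.21%, of the Pcdha6 pair by 25.6% and of the Pcdha7 pair by 13.2%, while the -g genes varied by 90.9%, 101.4% and 69.7%. A gene of these pairs was listed at 0 in 1 library in most cases, and Pcdha4-g was at 0 in 2 footprint libraries. Where a single gene of these pairs is named below, the value of the merged pair stands beside it. As an alternative chosen after seeing the data, each -g gene was merged with its namesake: none of 63 tests of the merged genes was called (lowest adjusted p 0.158 by edgeR, 4 with an unadjusted p under 0.05), and their log2 differences ran from -0.59 to 0.51, against -3.45 to 3.34 for the separate genes.

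**Figure D3:**
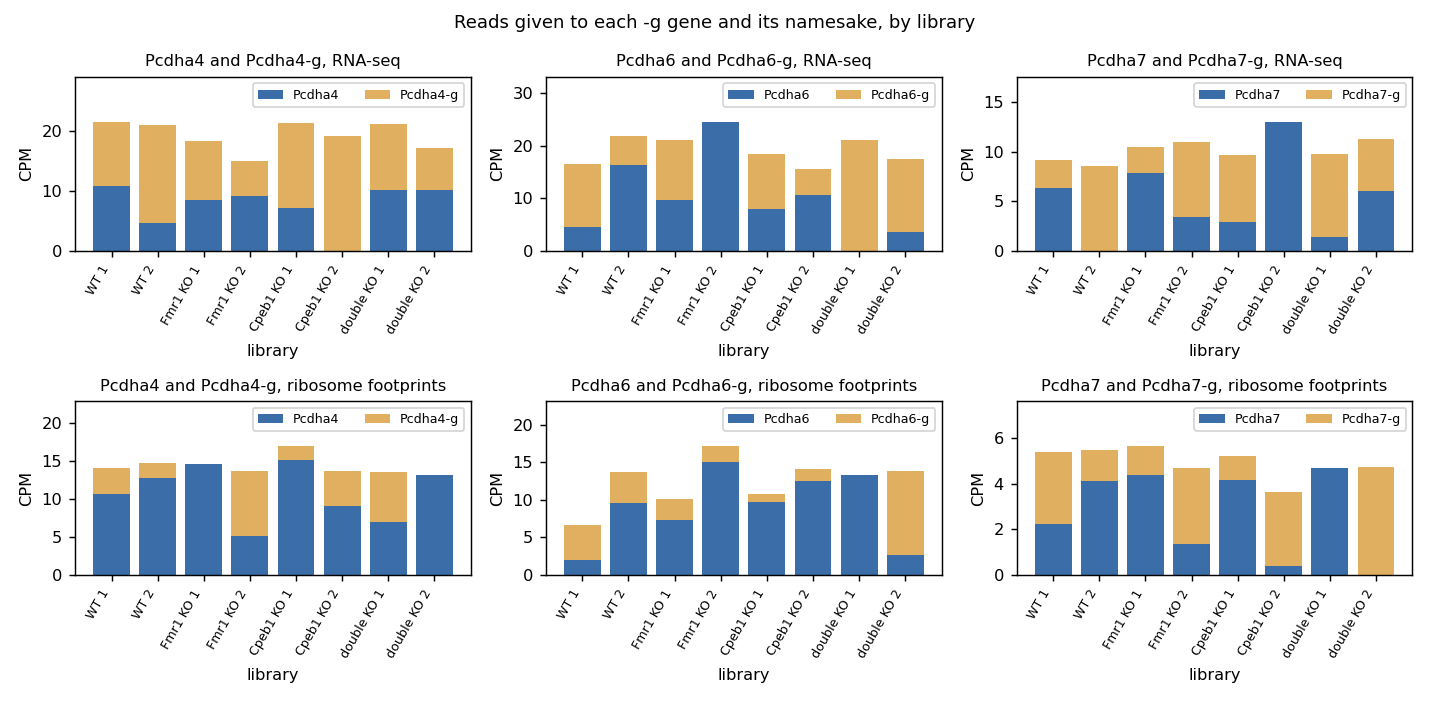
CPM of each -g gene (yellow) stacked on its namesake (blue) in every library, with RNA in the upper row and footprints in the lower row. The heights of the stacks vary less between libraries than the split within them, which ranges from all blue to all yellow.

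No cluster sum passed the test in any comparison of genotypes. The alpha sum in RNA was 357.9 and 335.3 CPM in WT, 328.4 and 333 CPM in the Fmr1 knockout, 339.1 and 331.7 CPM in the Cpeb1 knockout, and 332.9 and 311.1 CPM in the double knockout. The beta sum was 276.6 and 231.5 CPM in WT, 266 and 287.1 CPM in the Fmr1 knockout, 276.9 and 264.1 CPM in the Cpeb1 knockout, and 267.3 and 232.4 CPM in the double knockout. The gamma sum was 512.9 and 521.4 CPM, 483.7 and 541.7 CPM, 467.4 and 495.5 CPM, and 512.2 and 533.9 CPM in the same order. For the beta sum in RNA every knockout overlapped WT, and for the alpha sum no library of a knockout exceeded the higher WT library.

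In footprints the alpha sum was 169.9 and 187.4 CPM in WT, 180.4 and 206.2 CPM in the Fmr1 knockout, 189.1 and 187.1 CPM in the Cpeb1 knockout, and 165.2 and 188.6 CPM in the double knockout. The beta sum was 173.6 and 180.1 CPM in WT, 185.1 and 196 CPM in the Fmr1 knockout, 196.6 and 192.6 CPM in the Cpeb1 knockout, and 158.2 and 182.4 CPM in the double knockout. The gamma sum was 678.5 and 703.4 CPM, 672.8 and 785.9 CPM, 743.9 and 775 CPM, and 641.8 and 772.1 CPM. Both single knockouts were above WT in both libraries for the beta sum, and the double knockout libraries lay on either side of WT for all 3 sums.

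All 63 tests of cluster sums (3 clusters in 21 comparisons) had log2 differences between -0.20 and 0.26. None was called by edgeR's quasi-likelihood test with Benjamini-Hochberg adjustment over all genes, with a lowest adjusted p of 0.134, and 3 had an unadjusted p under 0.05. These were the footprint beta sum in the double knockout against the Cpeb1 knockout (log2 difference -0.20, SE 0.08), the footprint beta sum in the single knockouts against WT and double knockout (0.15, SE 0.06), and the translational efficiency of the gamma sum in the Cpeb1 knockout against WT (0.26, SE 0.12). Translational efficiency compares how footprints and RNA of a gene changed, in a single model of both assays. The 95% intervals of the knockouts against WT, 9 in each measure, were each computed singly. Their lowest and highest limits were 0.795-fold and 1.31-fold in RNA and 0.855-fold and 1.23-fold in footprints. In translational efficiency they were 0.785-fold and 1.43-fold.

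**Figure D4:**
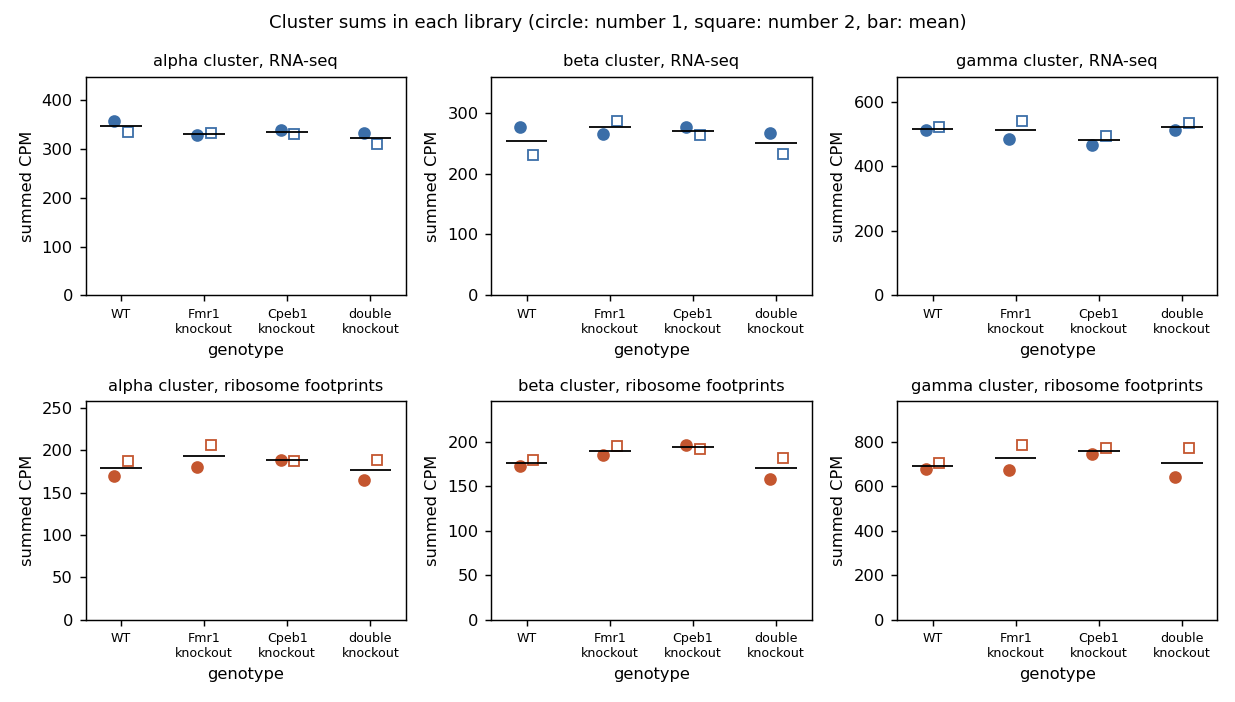
Summed CPM of the alpha, beta and gamma clusters in each library by genotype, with RNA in the upper row and footprints in the lower row. Circles are libraries of number 1, squares those of number 2 and bars the mean of 2, and every axis starts at 0. In the footprint panel of the beta cluster both single knockouts lie above both WT libraries, and the double knockout libraries lie on either side of WT in all 3 footprint panels.

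Single members were then compared by the same test, with 60 members tested in RNA, 61 in footprints and 60 for translational efficiency after a filter on low counts; Pcdhb1 was left out in RNA. A member is called when its adjusted p over all tested genes is under 0.05. In RNA 0 of 60 members were called in the 6 comparisons between genotypes, where 0.00753% of 13287 genes were called in the Fmr1 knockout against WT, 0% in the Cpeb1 knockout against WT, 0.00753% in the double knockout against WT, 0% in the double against the Fmr1 knockout, 0.00753% in the double against the Cpeb1 knockout and 0.00753% in the Fmr1 against the Cpeb1 knockout. None was called for loss of Fmr1 over both Cpeb1 states (0.00753% of all genes) or for loss of Cpeb1 over both Fmr1 states (0%). The RNA of Cpeb1 itself was not called against WT by edgeR. Its log2 difference was -1.12 in the Cpeb1 knockout (SE 0.18, adjusted p 0.225) and -1.16 in the double knockout (SE 0.18, adjusted p 0.377). These RNA tests can therefore miss a change of that size. By unadjusted p under 0.05, 6 members passed in the Fmr1 knockout against WT, 3 with loss of Cpeb1 alone and 2 with loss of both genes, of 60, against 8.09%, 10.95% and 4.23% of all genes. The lowest unadjusted p in a comparison with WT belonged to Pcdhb7 in the Fmr1 knockout (log2 difference 1.19, SE 0.30, adjusted p 0.526), Pcdha1 in the Cpeb1 knockout (-1.29, SE 0.29, adjusted p 0.225) and Pcdha6 in the double knockout (-2.64, SE 0.59, adjusted p 0.966), where the merged pair of Pcdha6 had a log2 difference of 0.04 (SE 0.19).

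For the remaining RNA comparisons without a call, the member with the lowest unadjusted p was a gene of a -g pair. Pcdha6 was that member in the double against the Fmr1 knockout (log2 difference -3.44, SE 0.55, adjusted p 0.206), in the double against the Cpeb1 knockout (-2.70, SE 0.59, adjusted p 0.0955) and for loss of Cpeb1 (-1.69, SE 0.36, adjusted p close to 1). Merged with Pcdha6-g, the same 3 log2 differences of Pcdha6 were -0.23, 0.18 and -0.18. Pcdha4-g was that member for the Fmr1 against the Cpeb1 knockout (-1.03, SE 0.31) and for loss of Fmr1 (-0.78, SE 0.22), with adjusted p close to 1 in both, and its merged pair with Pcdha4 had -0.28 and -0.21.

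The pooled RNA libraries of both single knockouts were compared with those of WT and double knockout, 4 libraries against 4, a comparison that the authors also deposited. Here 2 of 60 members were called, 1 in each direction, where 7.31% of 13287 genes were called. Pcdhb7 rose and Pcdha1 fell in the single knockouts. Pcdhb7 had 7.88 and 6.85 CPM in WT, 16.55 and 17.4 CPM in the Fmr1 knockout, 17.7 and 9.47 CPM in the Cpeb1 knockout, and 8.35 and 13.0 CPM in the double knockout. The Fmr1 knockout libraries were above all WT and double knockout libraries, and the Cpeb1 knockout library of number 2 lay below the double knockout library of number 2. The log2 difference of Pcdhb7 was 0.78 (SE 0.21, adjusted p 0.0393 by edgeR).

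Pcdha1 had 8.12 and 5.63 CPM in WT, 4.02 and 3.01 CPM in the Fmr1 knockout, 2.79 and 2.97 CPM in the Cpeb1 knockout, and 4.68 and 5.25 CPM in the double knockout. All 4 single knockout libraries were below all 4 others. The log2 difference of Pcdha1 was -0.90 (SE 0.22, adjusted p 0.0258 by edgeR). Its footprints had the opposite sign: 2.21 and 2.02 CPM in WT, 2.94 and 2.97 CPM in the Fmr1 knockout, 3.32 and 3.075 CPM in the Cpeb1 knockout, and 1.43 and 2.20 CPM in the double knockout. All 4 single knockout libraries were again on one side, now above the other 4, but this footprint difference of 0.66 (SE 0.17) had an adjusted p of 0.711, and the translational efficiency of Pcdha1 in the Cpeb1 knockout (1.91, SE 0.37) and the Fmr1 knockout (1.49, SE 0.37) had adjusted p of 0.292 and 0.47.

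Neither call was held by every subset of the libraries. The call of Pcdha1 was lost without the WT library of number 1, without either Fmr1 knockout library or without the Cpeb1 knockout library of number 1 (adjusted p 0.0517 to 0.123), and that of Pcdhb7 without either WT library, either Fmr1 knockout library, the Cpeb1 knockout library of number 1 or the double knockout library of number 1 (0.0727 to 0.142). In the fit without the replicate number as a block, the adjusted p was 0.0429 for Pcdha1 and 0.0536 for Pcdhb7. In the authors' deposited table of this comparison 9.09% of 15086 genes had an adjusted p under 0.05, and 48 of 61 members had an adjusted p. Pcdhb7 was the only member under 0.05. Its log2 value was -0.42 for WT and double knockout over the single knockouts (adjusted p 0.00829 by DESeq2). The authors' deposited translational efficiency tables held 2 more members under 0.05: Pcdha1 in the Cpeb1 knockout over WT (log2 1.08, adjusted p 0.0414) and Pcdhga9 in the double knockout over the Cpeb1 knockout (log2 -0.82, adjusted p 0.0282). Of all genes, 2.47% and 0.668% were under 0.05 in these 2 comparisons.

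**Figure D5:**
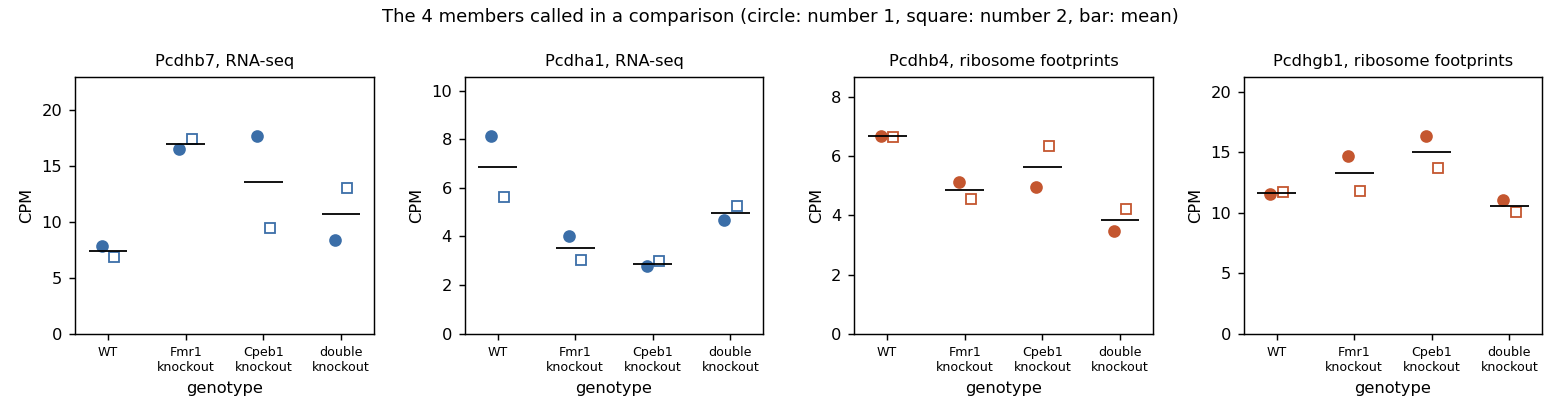
CPM of the 4 members called in a comparison, by genotype: Pcdhb7 and Pcdha1 in RNA (blue), Pcdhb4 and Pcdhgb1 in footprints (orange). Circles are libraries of number 1, squares those of number 2 and bars the mean of 2, and every axis starts at 0. The WT libraries of Pcdhb4 are above all others, and the WT libraries of Pcdhb7 are below all others.

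In footprints 1 of 61 members was called in the double knockout against WT, where 2.65% of 13774 genes were called. Pcdhb4 fell, from 6.68 and 6.67 CPM in WT to 3.47 and 4.205 CPM in the double knockout, with 5.15 and 4.57 CPM in the Fmr1 knockout and 4.96 and 6.34 CPM in the Cpeb1 knockout. The double knockout libraries were the lowest 2 of 8. The log2 difference of Pcdhb4 was -0.81 (SE 0.19, adjusted p 0.0454 by edgeR), and in RNA it was 0.33 (SE 0.28, adjusted p 0.966). The translational efficiency of Pcdhb4 was the lowest by unadjusted p of all members in this comparison (-1.15, SE 0.35, adjusted p close to 1). The call was lost when any of the 8 footprint libraries was left out (adjusted p 0.0525 to 0.209), and in the fit without the replicate block its adjusted p was 0.0776.

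In the double knockout against the Cpeb1 knockout 1 of 61 members was called in footprints, where 5.6% of all genes were called. Pcdhgb1 fell, from 16.3 and 13.7 CPM in the Cpeb1 knockout to 11.05 and 10.1 CPM in the double knockout, with 11.55 and 11.7 CPM in WT and 14.7 and 11.8 CPM in the Fmr1 knockout. The double knockout libraries were the lowest of the 8, just under WT. The log2 difference of Pcdhgb1 was -0.50 (SE 0.13, adjusted p 0.0441 by edgeR), and in RNA it was -0.14 (SE 0.27, adjusted p 0.823). The call was lost without either library of the Fmr1, Cpeb1 or double knockout (adjusted p 0.0616 to 0.406) and was held without either WT library, and in the fit without the replicate block its adjusted p was 0.0854.

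None of the 61 members was called in the other footprint comparisons. The share of all genes called was 0.0581% in the Fmr1 knockout against WT, 0.0799% in the Cpeb1 knockout against WT, 0.334% in the double against the Fmr1 knockout, 0.0581% in the Fmr1 against the Cpeb1 knockout, 0.922% for loss of Fmr1, 0.167% for loss of Cpeb1 and 0% for the single knockouts against WT and double knockout. The last comparison had 957 of all genes at an unadjusted p under 0.05. The members with the lowest unadjusted p were Pcdha12 in the Fmr1 knockout against WT (log2 difference 0.46, SE 0.12, adjusted p 0.547), Pcdhb15 in the Cpeb1 knockout against WT (0.42, SE 0.14, adjusted p close to 1), Pcdhb4 for loss of Fmr1 (-0.51, SE 0.13, adjusted p 0.0784) and Pcdhga12 for loss of Cpeb1 (0.23, SE 0.07, adjusted p 0.461).

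Pcdhgb8 was that member in the remaining pair of knockout comparisons, the Fmr1 against the Cpeb1 knockout (2.29, SE 0.61, adjusted p 0.584) and the double against the Fmr1 knockout (-2.30, SE 0.64, adjusted p 0.123). A single library stood out: the Fmr1 knockout library of number 1 had 10.8 CPM of Pcdhgb8 footprints, and the other 7 libraries had 0.881 to 1.93 CPM, including the Fmr1 knockout library of number 2. In RNA Pcdhgb8 had 8.78 and 11.3 CPM in the Fmr1 knockout, within the range of the other genotypes (5.602 to 12.7).

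More members had higher than lower footprints in each single knockout, without passing the test. Of 61 members, 41 had a log2 footprint difference above 0 in the Fmr1 knockout against WT, 45 with loss of Cpeb1 alone and 27 with loss of both genes, with medians of 0.10, 0.14 and -0.03, while 51.4%, 49.5% and 49.8% of all genes were above 0. These comparisons share the WT libraries, and members share exons and reads, so the counts are a description. Summed over all members, footprints were 1022 and 1071 CPM in WT, 1038 and 1188 CPM in the Fmr1 knockout and 1130 and 1155 CPM in the Cpeb1 knockout, so the Fmr1 knockout library of number 1 lay within the WT range. The median of 0.10 for the Fmr1 knockout was 0.05 without its library of number 2 (37 of 61 members above 0), and the median of 0.14 for the Cpeb1 knockout was 0.07 without the WT library of number 2 and 0.08 without its own library of number 1. For the single knockouts against WT and double knockout, 48 of 61 members were above 0 with a median of 0.13, and 8 members against 0 had an unadjusted p under 0.05 in the upward direction, beside 3.92% of all genes upward and 3.03% downward. By cluster these were 20 of 22 gamma members (median 0.13), 19 of 22 beta members (0.15) and 9 of 17 alpha members (0.01). In RNA the same comparison had 34 of 60 members above 0 with a median of 0.02, and the beta cluster had 16 of 21 above 0 (median 0.13). Against the Fmr1 knockout, 12 of 61 members had a footprint difference above 0 in the double knockout (median -0.11), 1 of 22 in the beta cluster, and 10 members had an unadjusted p under 0.05 with a lower value, beside 8.26% of all genes. Against the Cpeb1 knockout 20 of 61 members were above 0 (median -0.13), and 13 had an unadjusted p under 0.05 with a lower value, beside 12.5% of all genes.

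For translational efficiency 0 of 60 members were called in any knockout against WT, where 0.0154% of 13027 genes were called with loss of Fmr1, 0% with loss of Cpeb1 (1224 genes at an unadjusted p under 0.05) and 0.00768% with loss of both. The lowest unadjusted p belonged to Pcdha1 in both single knockouts and to Pcdhb4 in the double knockout. In the Cpeb1 knockout 18 of 22 gamma members had a log2 difference above 0 (median 0.28), against 12 of 21 beta members (0.11) and 10 of 17 alpha members (0.10). In the double knockout the gamma cluster had 10 of 22 above 0 (median -0.07).

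None of the 5 C-type isoforms was called in any of the 21 comparisons. Pcdhgc5 in RNA had 183.1 and 188.1 CPM in WT, 173.7 and 173.5 CPM in the Fmr1 knockout, 168.3 and 173.3 CPM in the Cpeb1 knockout, and 165.1 and 185.5 CPM in the double knockout. Its log2 difference from WT was -0.10, -0.12 and -0.09 in the 3 knockouts, each with an SE of 0.11. In footprints Pcdhgc5 had 291.2 and 291.9 CPM in WT, 270.9 and 338.2 CPM in the Fmr1 knockout, 318.7 and 327 CPM in the Cpeb1 knockout, and 274.5 and 337.6 CPM in the double knockout. Pcdhac2 in RNA had 154.9 and 155.8 CPM in WT, 133.6 and 142.4 CPM in the Fmr1 knockout, 154.7 and 160 CPM in the Cpeb1 knockout, and 131.3 and 139.5 CPM in the double knockout. The 4 libraries without Fmr1 were below the 4 with it for Pcdhac2 RNA, a log2 difference of -0.19 (SE 0.07, unadjusted p 0.0238, adjusted p close to 1). In footprints the difference of Pcdhac2 for loss of Fmr1 was -0.15 (SE 0.07, adjusted p 0.272).

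Genes that work with the clustered protocadherins were counted in the same fits, from lists chosen with earlier results of these data known. Of 22 adhesion and signalling partners, 3 were called in RNA for the single knockouts against WT and double knockout, where 7.31% of all genes were called: Nlgn2, an inhibitory synapse adhesion protein (log2 difference -0.55, SE 0.09), and Marcks, a membrane-bound actin regulator (-0.53, SE 0.13), fell, and Pdcd10, which binds cytoplasmic tails of gamma protocadherins, rose (0.34, SE 0.10). The median log2 difference of the 22 partners was 0.04, against 0.03 over all genes. In footprints Marcks rose in the double knockout against WT (0.45, SE 0.07), against the Cpeb1 knockout (0.55, SE 0.07) and against the Fmr1 knockout (0.44, SE 0.07), and for loss of Fmr1 (0.28, SE 0.05), 4 comparisons in which 2.65%, 5.6%, 0.334% and 0.922% of all genes were called. Nckap1, a subunit of the actin-regulating WAVE complex, which binds cytoplasmic tails of some protocadherins, fell in the double knockout against WT (-0.66, SE 0.13), and Adam10, a protease that sheds protocadherin ectodomains, and Nlgn1 fell against the Cpeb1 knockout (-0.42, SE 0.09 and -0.39, SE 0.09).

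Among 20 regulators of the locus, 19 were tested in RNA and 18 in footprints. The RNA of Wiz, a zinc-finger protein that acts with CTCF and cohesin at these clusters, fell (-1.07, SE 0.16) in the single knockouts against WT and double knockout. Footprints of the DNA methyltransferase Dnmt3a rose in the double knockout against WT (0.50, SE 0.11) and against the Cpeb1 knockout (0.43, SE 0.11). Of 21 protocadherins outside the clusters and large cadherins, 19 were tested. Celsr2 (-0.33, SE 0.07) and Celsr3 (-0.51, SE 0.11), cadherins of planar cell polarity and axon guidance, fell in RNA of the single knockouts. Pcdh11x footprints fell in the double knockout against WT (-0.47, SE 0.10) and against the Cpeb1 knockout (-0.64, SE 0.10) and for loss of Fmr1 (-0.37, SE 0.07), and Fat3 (-0.35, SE 0.08) and Pcdh9 (-0.34, SE 0.08) fell against the Cpeb1 knockout. Of 22 genes beside the locus on the chromosome, 19 were tested in RNA and 18 in footprints, and none was called in any of the 21 comparisons by edgeR, with 0 to 5 at an unadjusted p under 0.05 in each.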

How the data were processed

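RNA-seq of cytoplasmic RNA and ribosome profiling were made from cortical lysates, with 2 libraries for each of 4 genotypes. Per the submitters' processing notes, the authors used cutadapt, Bowtie2, TopHat2, RSEM and DESeq2 with mm10. Versions are not given in the sources used here. Per the file headers, the deposited gene tables hold RSEM expected counts and TPM. The authors' deposited comparison tables hold log2 fold changes, p-values, and mean normalised counts (signal), from DESeq2 or Xtail per the series' design text.

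Expected counts were rounded and tested with edgeR 4.0.16 in R 4.3.3: TMM, a low-count filter (filterByExpr, minimum count 10), a quasi-likelihood fit of 4 genotypes with the replicate number as a block, and Benjamini-Hochberg adjustment over all genes tested. The comparison of pooled genotypes used 2 groups of 4, and translational efficiency was the interaction of assay and genotype over 16 libraries. SE is the log2 difference divided by the square root of F. Cluster sums replaced the members in the same fits. CPM are expected counts over TMM library sizes, and TPM were used as deposited. The procedure was tested on simulated data with the same spread for every gene and no splitting of reads between isoforms. That test does not show how the fits perform on the members. No 2 libraries of an assay held identical counts.

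Named members were the 3 highest per cluster in footprint TPM, the C-type isoforms, every called member, and the member with the lowest p where none was called. From the other lists only called genes were named, beside Fmr1 and Cpeb1. A called gene of the list of regulators is not reported here. The members and lists were chosen with earlier results of these data known. Alternatives were DESeq2 1.42.0, no block, no filter, at least 10 counts in every library, a gene length correction, fits of 2 genotypes only, each library left out, and shares from expected counts. No sequences are printed.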

Additional observations from a re-analysis of the deposited data

Results flagged for a closer look

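In RNA 2 of 60 members were called in the pooled single knockouts against WT and double knockout, where 7.31% of all genes were called. With the 4 genotypes kept apart, the same contrast tests whether the effect of losing a gene depends on the other. There 1 of 60 members was called, where 2.06% of all genes were. Neither share of members exceeded that of all genes. In the pooled comparison Pcdha1 had a log2 difference of -0.9045 (SE 0.2203, adjusted p 0.0258 by edgeR), with all 4 single knockout libraries below the other 4. Pcdhb7 had a log2 difference of 0.7771 (SE 0.2119, adjusted p 0.0393), with 3 of the 4 single knockout libraries above all 4 others. Pcdha6 passed only in the fit that kept the 4 genotypes apart, with a log2 difference of 1.751 (SE 0.3598, adjusted p 0.0416), and in that fit Pcdha1 and Pcdhb7 had adjusted p of 0.0533 and 0.0682. With Pcdha6-g merged into it, Pcdha6 had 0.0434 (SE 0.136, adjusted p 0.871) in the fit of 4 genotypes. Leaving out each RNA library gave Pcdha6 log2 differences of 1.38 to 4.67, the highest without the double knockout library of number 2, and the call was lost in 6 of 8 such fits (adjusted p 0.0581 to 0.246) and without the replicate block (0.138).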

How the results depend on the processing

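The count of called members was recomputed 335 times over 21 comparisons and stayed between 0 and 6; cluster sums were called in none of 335 recomputations. With only the libraries of the 2 genotypes compared, RNA gave 3 members in the Fmr1 knockout against WT (3.05% called over all genes). For the double knockout, RNA gave 2 against WT (0.185%), 2 against the Fmr1 knockout (1.28%) and 3 against the Cpeb1 knockout (1.0%). Footprints in these fits gave 2 in the Fmr1 knockout against WT (0.317%) and 2 in the Cpeb1 knockout against WT (0.234%). They gave 2 in the Fmr1 against the Cpeb1 knockout (1.04%). For the double knockout, footprints gave 4 against the Fmr1 knockout (5.66%) and 5 against the Cpeb1 knockout (12.5%). Against WT they gave 0, and the share of all genes in that fit is not given here. Without the count filter, RNA gave 6 in the single knockouts against WT and double knockout (7.95%), 1 in the double against the Cpeb1 knockout (1.19%) and 1 against the Fmr1 knockout (0.0116%), and footprints gave 1 for loss of Fmr1 (1.9%), 2 in the double against the Cpeb1 knockout (5.91%) and 1 against the Fmr1 knockout (0.98%). The length correction gave 1 in RNA for the double against the Cpeb1 knockout (Pcdha6, with 3.67% of all genes called). In the fit without that correction, the merged pair of Pcdha6 had a log2 difference of 0.18 (SE 0.19) there. For the RNA of single knockouts against WT and double knockout, DESeq2 gave 1 (8.32%, no adjusted p for Pcdha1). The fit of 4 genotypes gave 1 there (2.06%). DESeq2 gave 0 in footprints of the double knockout against WT (3.35%, no adjusted p for Pcdhb4) and 0 against the Cpeb1 knockout (6.03%).

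Without the replicate block 1 member was called in RNA for the single knockouts against WT and double knockout (2.86% of all genes). In footprints 0 were called for the double knockout against WT (0.53%) and 0 against the Cpeb1 knockout (1.5%). With the block these shares of all genes were higher, at 7.31%, 2.65% and 5.6%. Differences between libraries 1 and 2 correlated between genotypes at -0.0446 to 0.293 in RNA and -0.0748 to 0.334 in footprints. Every RNA library of number 1 held more counts (8365060 to 10246482) than every one of number 2 (5423925 to 6528734). In footprints the totals of the 2 numbers overlapped. Whether the numbers mark a batch was not tested. Leaving out each library changed the count of called members in most comparisons. In a fit of 4 genotypes this left 1 library of a genotype. The shares of all genes called in these fits are not given here, so the counts were not compared with them.

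The 4 called members kept their sign in each recomputation: Pcdha1 was called in 9 of 14, Pcdhb7 in 7 of 15, Pcdhb4 in 4 of 14 and Pcdhgb1 in 7 of 15. Merging the -g genes with their namesakes, chosen after seeing the data, kept all 4 calls. Shares from expected counts in place of TPM were 30.2% for alpha and 23.8% for beta in RNA, and 16.9%, 16.8% and 66.25% for alpha, beta and gamma in footprints; leaving out each library moved no share by more than the spread between replicates (28.1% to 28.4%, 26.8% to 27.5%, 15.9% to 16.1%, 19.2% to 19.5% and 64.4% to 64.8% in the same order).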
